A study of Mus musculus with 4 samples.

Results

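Fatty acid and cholesterol metabolism was examined as a set of 37 genes, all of which were found by symbol among the 18804 genes of the deposited expression table. The rule picks genes by name, though the names were chosen with earlier results of these data known. It holds 11 genes of fatty acid oxidation, 8 of fatty acid synthesis and desaturation, 8 of sterol synthesis, 5 regulators of these pathways and 5 genes of lipid transport, efflux and storage. The measurements are RNA-seq values of type 1 innate lymphoid cells (ILC1s), tissue-resident lymphocytes related to natural killer (NK) cells, from livers of mice aged 5 to 8 weeks at homeostasis. There were 2 libraries of mice labelled Cd200r knockout (replicates 1 and 2) and 2 of WT mice (replicates 1 and 3). The sources used here do not give the strain, the allele, the sort gates or whether animals were pooled. The p-values therefore rest on differences among 4 libraries that may not be separate animals.

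Fatty acids are burned in mitochondria after the carnitine shuttle has carried them in. Each turn of beta-oxidation uses dehydrogenases, a hydratase and a thiolase. Electrons from the first step, that of the acyl-CoA dehydrogenases, are passed on through the flavoprotein ETF. Fatty acids are built in the cytosol from citrate-derived acetyl-CoA, then elongated and desaturated. Sterols arise from acetyl-CoA through the mevalonate pathway. SREBP transcription factors, held back by INSIG proteins when sterols are plentiful, switch on synthesis and uptake, whereas liver X receptors (LXRs) switch on export through the transporters ABCA1 and ABCG1. In lymphocytes, resting cells rely more on oxidation and dividing cells on synthesis. In macrophages the same transport and storage genes serve the handling of engulfed lipid.

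The values are FPKM, read fragments divided by gene length and by library size, so levels can be compared between genes. Inferred depth was 38972600 to 41164777 counted reads per library, at which 1 FPKM stands for 39.0 to 41.2 reads per kilobase. Testing was limited to genes that averaged 1 FPKM or more, 9476 in all and 34 of the 37 in the set. The groups were compared on log2(FPKM + 1) with limma, and a gene was called at a Benjamini-Hochberg adjusted p under 0.05. Every adjusted p below is from that fit across all tested genes, and log2 fold changes are knockout minus WT.

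All 9 measured ILC1 markers were at 14.1 FPKM or more in each library, and they summed to 5761 and 5638 FPKM in knockout and 6825 and 6679 FPKM in WT. Of these markers 8 had a negative log2 fold change, and 1 fell, the granzyme gene Gzmc, at 116.3 and 94.6 FPKM in knockout and 291.9 and 319.4 FPKM in WT (log2 fold change −1.53, adjusted p = 1e-04). Among all 9476 tested genes, 4691 had a negative log2 fold change and 0.939% were called as lower. The targeted gene Cd200r1 measured 110.7 and 103.7 FPKM in knockout and 161.5 and 173.3 FPKM in WT, so its transcript was lower and not absent (log2 fold change −0.64, SE 0.09, adjusted p = 0.00451). Transcripts of other cells differed between the groups. Macrophage markers summed to 653.8 and 968.7 FPKM in knockout and 247.4 and 226.6 FPKM in WT. Most of each sum was Lyz2 alone, at 526.7 and 771.1 FPKM in knockout and 213.3 and 193 FPKM in WT. Red cell markers summed to 12480 and 14030 FPKM in knockout and 24710 and 26810 FPKM in WT. Conventional NK markers summed to 289.4 and 605.6 FPKM in knockout and 106.1 and 101.9 FPKM in WT, with knockout replicate 2 the highest. Hepatocyte markers summed to 520.5 and 557.5 FPKM in knockout and 371.3 and 497.1 FPKM in WT. Mitochondrially encoded mRNA made up 2.51% and 2.89% of summed FPKM in knockout and 1.3% and 1.64% in WT.

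Of the 34 tested genes, 1 rose in knockout, 0 fell and 33 did not pass. The gene that rose was Fabp5, a fatty acid binding protein. Over all tested genes 3.33% were called, 2.4% as higher and 0.939% as lower, so the share called in the set (2.94%) was close to the background. At an unadjusted p under 0.05 there were 8 of the 34, 4 higher and 4 lower in knockout, against 15.5% of all tested genes. The 95% interval of the log2 fold change lay between −1 and 1 for 30 of the 34 genes, and for 90.8% of all tested genes. The 4 exceptions were Fabp5, Nr1h3, Fads1 and Srebf2. This band is 2-fold on FPKM + 1, so for genes of low level it allows a change in FPKM of more than 2-fold.

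**Figure D1:**
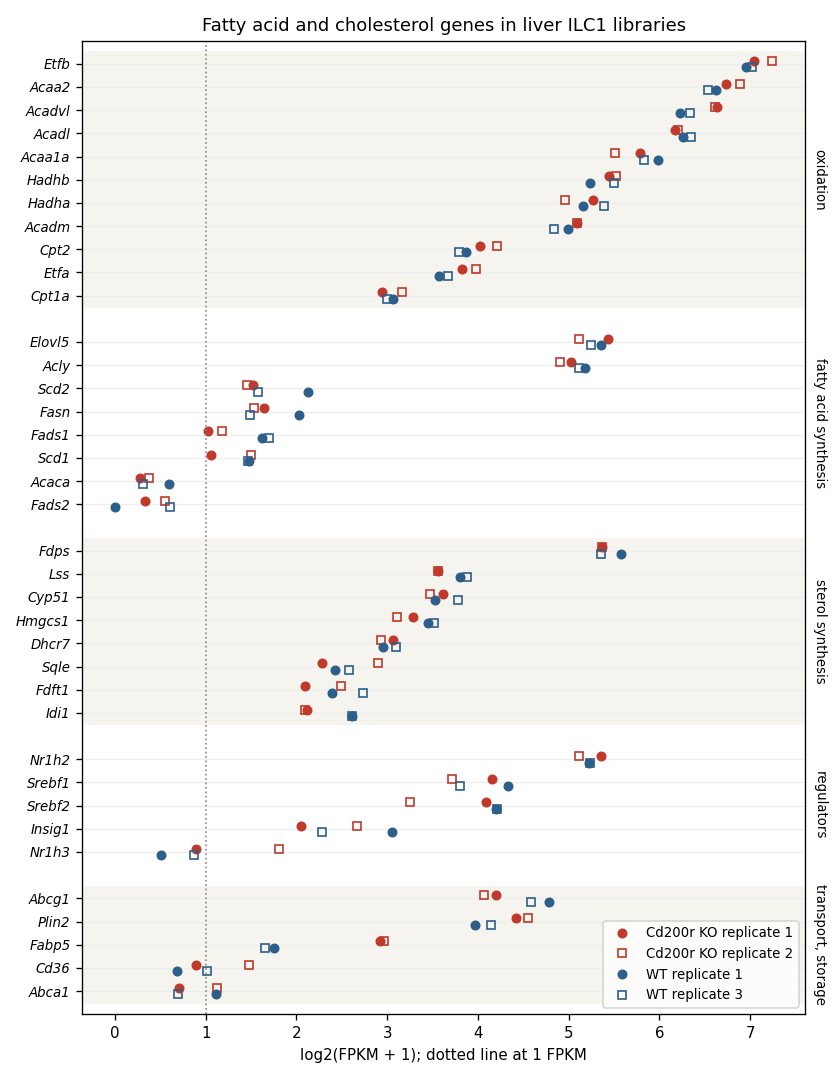
Level of each of the 37 genes in each library, as log2(FPKM + 1), grouped by role and ordered by mean within each group (red, knockout; blue, WT; the dotted line marks 1 FPKM). Oxidation genes hold the highest levels, up to a mean of 133.4 FPKM for Etfb, and Fabp5 is the called gene.

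Promoter sequences were available for 28 of the 37 genes in the RefSeq table of GRCm38.p6, as windows from 250 bases before to 50 bases after a start of the gene. Both strands were searched for a relaxed form of the sterol regulatory element bound by SREBPs (TCACNCCAC) and for the E-box CACGTG, which SREBPs and other helix-loop-helix factors bind. The relaxed form was chosen after the sequences had been looked at. The relaxed element was found in Hmgcs1 alone among the 28, and in 1.24% of all 32851 windows. A longer form of the element with no free letter was found in 0 of the 28 genes and in 0.091% of all windows. The E-box was found in 5 of the 28 genes, namely Abca1, Dhcr7, Elovl5, Insig1 and Plin2, and in 7.15% of all windows. The 28 genes had 33 windows, so these counts of genes and shares of windows are not like measures. A match of letters is a description and not a site of binding. The 3 windows shown are written 5′ to 3′ on the strand of the gene, with the matched letters in capitals: Hmgcs1 as the sterol synthesis gene that carries the relaxed element, Insig1 as the sterol sensor and Plin2 as the lipid droplet gene.
Hmgcs1 promoter, chr13:119690101-119690400, plus strand: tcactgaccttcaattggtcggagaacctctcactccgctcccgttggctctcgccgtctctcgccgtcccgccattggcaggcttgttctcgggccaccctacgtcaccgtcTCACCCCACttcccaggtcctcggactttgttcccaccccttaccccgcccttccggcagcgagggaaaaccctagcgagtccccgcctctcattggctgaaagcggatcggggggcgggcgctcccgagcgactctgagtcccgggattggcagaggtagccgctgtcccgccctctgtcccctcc
Insig1 promoter, chr5:28071162-28071461, plus strand: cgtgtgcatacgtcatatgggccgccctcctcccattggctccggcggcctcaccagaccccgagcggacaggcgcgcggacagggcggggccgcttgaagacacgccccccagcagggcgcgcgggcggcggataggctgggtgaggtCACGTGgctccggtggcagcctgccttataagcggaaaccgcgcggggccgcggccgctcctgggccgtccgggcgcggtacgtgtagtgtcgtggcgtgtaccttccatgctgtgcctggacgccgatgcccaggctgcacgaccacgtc
Plin2 promoter, chr4:86670010-86670309, minus strand: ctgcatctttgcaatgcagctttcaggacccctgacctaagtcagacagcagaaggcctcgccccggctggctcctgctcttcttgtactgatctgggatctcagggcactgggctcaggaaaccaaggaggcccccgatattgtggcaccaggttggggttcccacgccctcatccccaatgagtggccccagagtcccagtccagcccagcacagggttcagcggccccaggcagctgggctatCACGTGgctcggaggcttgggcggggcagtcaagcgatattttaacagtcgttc

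Oxidation was the most strongly expressed branch within the set. Its 11 genes had a median level of 42.2 FPKM, against 8.14 FPKM for the 8 sterol genes and 1.94 FPKM for the 8 genes of fatty acid synthesis, and they summed to 608.2 and 631.7 FPKM in knockout and 566.8 and 581.3 FPKM in WT. In wider lists of other genes of these branches, the median over tested genes was 12.3 FPKM for oxidation, 23.9 FPKM for synthesis and 8.21 FPKM for sterol genes. Over all genes of those lists found in the data, tested or not, it was 7.94, 3.10 and 5.095 FPKM. None of the 11 oxidation genes of the set passed the test, against 3.33% of all tested genes, and the smallest adjusted p was 0.0939. Log2 fold changes ran from −0.26 to 0.34 with a median of 0.16, where the median over all tested genes was 0.0033. In 8 of the 11 genes the knockout and WT libraries did not overlap, 6 higher and 2 lower in knockout, and over all tested genes 46% did not overlap, 24.3% higher and 21.7% lower. Mitochondrially encoded mRNA was also higher in the same knockout libraries, and the median over the 11 genes was 0.13 when the libraries were rescaled without haemoglobin and mitochondrially encoded genes and 0.08 after quantile normalization. The part of these shifts in the result was not tested.

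At the entry step neither carnitine palmitoyltransferase passed. Cpt1a, the outer carnitine palmitoyltransferase that limits the entry of long-chain fatty acids into mitochondria, measured 6.70 and 7.93 FPKM in knockout and 7.37 and 7.01 FPKM in WT. The groups overlapped, and the 95% interval of the log2 fold change ran from −0.38 to 0.42. Cpt2, its partner on the inner membrane, measured 15.2 and 17.5 FPKM in knockout and 13.6 and 12.9 FPKM in WT. Both knockout libraries were above both WT libraries, and the difference did not pass (log2 fold change 0.29, SE 0.15, adjusted p = 0.405).

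The acyl-CoA dehydrogenases, which take the first step of each turn for chains of different length, had log2 fold changes of both signs. Acadvl, for very long chains, measured 98.3 and 97.3 FPKM in knockout and 74.1 and 79.6 FPKM in WT. The knockout libraries were close to each other and above both WT libraries, and Acadvl had the largest difference of the branch (log2 fold change 0.34, SE 0.10, adjusted p = 0.0939). GENCODE places 42.9% of the exon bases of Acadvl over those of Dvl2 on the opposite strand, and the library kit does not mark strand. Dvl2 measured 3.05 and 2.32 FPKM in knockout and 2.69 and 2.72 FPKM in WT. Acadm, for medium chains, measured 33.1 and 33.0 FPKM in knockout and 30.8 and 27.5 FPKM in WT, and its log2 fold change of 0.18 (SE 0.12) did not pass. Acadl, for long chains, lay the other way, at 71.0 and 73.0 FPKM in knockout and 75.6 and 80.7 FPKM in WT, a log2 fold change of −0.12 (SE 0.10) that did not pass.

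The later steps were likewise mixed. Hadha and Hadhb, the 2 chains of the mitochondrial trifunctional protein, had log2 fold changes of −0.16 (SE 0.14) and 0.12 (SE 0.12), and in both the groups overlapped. Acaa2, the mitochondrial thiolase, measured 105.4 and 117.5 FPKM in knockout and 97.6 and 91.9 FPKM in WT, with no overlap but an adjusted p of 0.293. Acaa1a, the thiolase of peroxisomes, measured 54.3 and 44.6 FPKM in knockout and 62.4 and 55.9 FPKM in WT, again with no overlap and an adjusted p of 0.355. Its close copy Acaa1b, which could share reads with it, stayed under 1 FPKM in every library. Both chains of ETF were higher in each knockout library than in either WT library. In GENCODE, 53% of the exon bases of Etfb lie in a second gene model, Gm45233, on the same strand, so its level could depend on how shared reads were counted. Etfb, the most abundant transcript of the set, measured 130.8 and 150.9 FPKM in knockout and 123.1 and 128.8 FPKM in WT (log2 fold change 0.16 with SE 0.10 and adjusted p = 0.501), and Etfa measured 13.2 and 14.8 FPKM in knockout and 10.9 and 11.7 FPKM in WT (log2 fold change 0.28 with SE 0.15 and adjusted p = 0.431).

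The wider oxidation pathway did not show a called change. Of 29 other oxidation genes found in the table, 24 were tested and none passed, with a median log2 fold change of 0.02 and no overlap in 8 of the 24 (33.3%, against 46% of all tested genes). The largest difference was in Acox3, a peroxisomal acyl-CoA oxidase, at 3.94 and 3.35 FPKM in knockout and 6.46 and 4.41 FPKM in WT. Its log2 fold change was −0.45 (SE 0.22, adjusted p = 0.368). Taking both lists, 0 of 35 tested oxidation genes were called, against 3.33% of all tested genes. All 35 intervals of the log2 fold change lay between −1 and 1, against 90.8% of all tested genes.

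**Figure D2:**
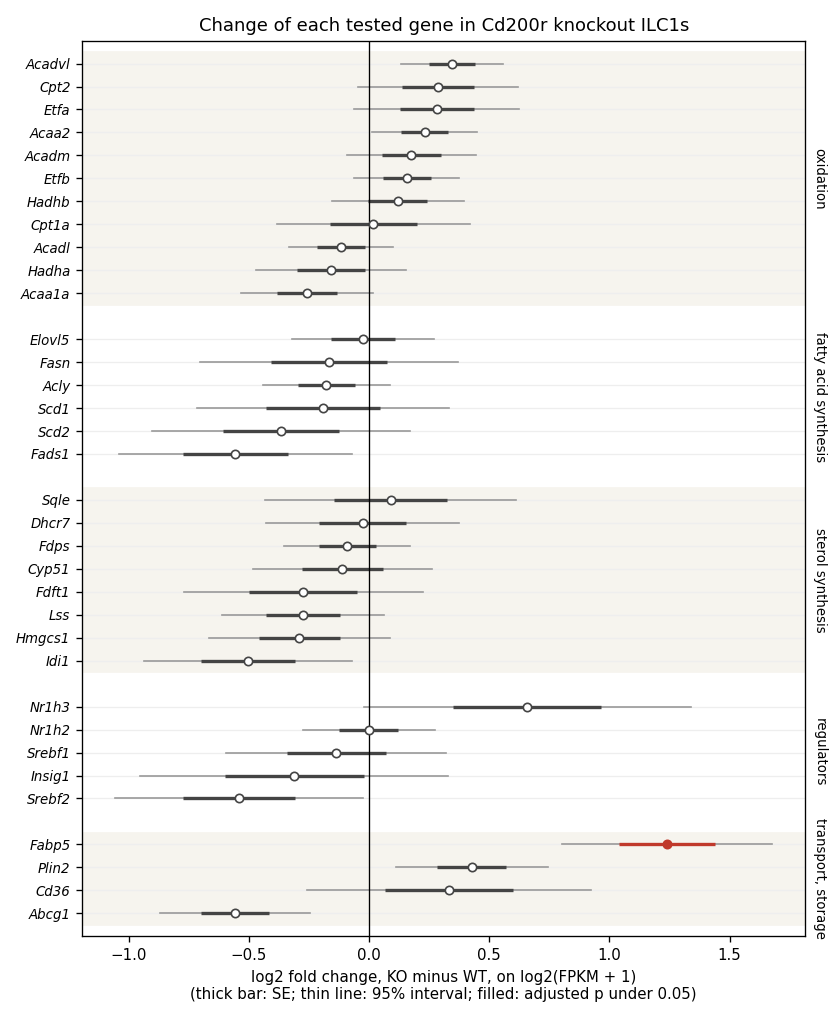
Log2 fold change of each of the 34 tested genes, knockout minus WT, grouped by role (thick bar, SE; thin line, 95% interval; filled red, called). Fabp5 at 1.24 is the single called gene, while 8 of 11 oxidation genes lie above 0 and 7 of 8 sterol genes below 0. Of all 9476 tested genes, 4783 lie above 0 and 4691 below 0.

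Fatty acid synthesis genes of the set were weakly expressed apart from Acly and Elovl5. The 8 genes summed to 80.6 and 70.2 FPKM in knockout and 86.1 and 79.1 FPKM in WT. Of the 6 tested, 0 passed, all had a negative log2 fold change, and the median was −0.18. Among all 9476 tested genes, 3.33% were called and 4691 had a negative log2 fold change. In 3 of the 6, all lower in knockout, the libraries did not overlap, a share of 50% against 46% of all tested genes. Acly, which cleaves citrate to cytosolic acetyl-CoA, measured 31.7 and 29.0 FPKM in knockout and 35.3 and 33.6 FPKM in WT (log2 fold change −0.18, SE 0.12). Elovl5, which lengthens polyunsaturated fatty acids, measured 42.3 and 33.7 FPKM in knockout and 39.9 and 36.96 FPKM in WT, and the groups overlapped. Its log2 fold change of −0.03 changed sign when knockout replicate 2 (0.13) or WT replicate 1 (0.03) was left out.

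The committed steps of the pathway stood near the lower limit of what was tested. Acaca, the acetyl-CoA carboxylase that makes malonyl-CoA, measured 0.21 and 0.292 FPKM in knockout and 0.508 and 0.234 FPKM in WT and was below the filter. Fasn, the synthase itself, measured 2.12 and 1.90 FPKM in knockout and 3.07 and 1.80 FPKM in WT, with overlap. The stearoyl-CoA desaturases Scd1 and Scd2, which make monounsaturated chains, were also low. Scd2 measured 1.87 and 1.73 FPKM in knockout and 3.37 and 1.99 FPKM in WT, with WT replicate 1 well above the other libraries (log2 fold change −0.37, SE 0.24, adjusted p = 0.523). Scd1 measured 1.08 and 1.83 FPKM in knockout and 1.79 and 1.76 FPKM in WT, where knockout replicate 1 was the low library.

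Fads1, a front-end desaturase of polyunsaturated fatty acids, had the largest difference of the synthesis genes. It measured 1.03 and 1.27 FPKM in knockout and 2.07 and 2.24 FPKM in WT, so that both knockout libraries were below both WT libraries. The ratio of means was 1.88-fold lower in knockout, and the difference did not pass (log2 fold change −0.56, SE 0.22, adjusted p = 0.251). Fads2, the other such desaturase, was below the filter, at 0.259 and 0.462 FPKM in knockout and listed at 0 and at 0.521 FPKM in WT. Of 24 other genes of synthesis and esterification in the table, 14 were tested and 0 passed, with a median of −0.03. The share called over all tested genes was 3.33%. The largest difference among them was in Thrsp, a lipogenic regulatory protein, at 2.71 and 1.98 FPKM in knockout and 2.81 and 4.40 FPKM in WT (log2 fold change −0.45 with SE 0.24 and adjusted p = 0.423).

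Sterol synthesis held no called gene, and most of its log2 fold changes were negative. The 8 genes summed to 89.1 and 90.0 FPKM in knockout and 100.5 and 100.1 FPKM in WT. All 8 were tested, 0 passed, 7 had a negative log2 fold change and the median was −0.19. Among all 9476 tested genes, 3.33% were called and 4691 had a negative log2 fold change. The libraries did not overlap in 3 of the 8, all lower in knockout, which is 37.5% against 46% of all tested genes. Cell cycle genes were higher in the same knockout libraries, with 9 of 18 tested called as higher, against 2.4% of all tested genes. Their levels summed to 472.5 and 445.6 FPKM in knockout and 282.3 and 290.2 FPKM in WT. Any relation to the sterol values was not tested.

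Hmgcs1, the cytosolic synthase that opens the mevalonate pathway and whose promoter holds the element shown above, measured 8.74 and 7.62 FPKM in knockout and 9.94 and 10.46 FPKM in WT. Both knockout libraries were lower, and the difference did not pass (log2 fold change −0.29, SE 0.17, adjusted p = 0.462). Idi1, the isomerase that supplies the activated isoprene unit, measured 3.35 and 3.27 FPKM in knockout and 5.12 and 5.10 FPKM in WT. Replicates were nearly equal within each group and the groups well apart, at a ratio of means 1.54-fold lower in knockout, but the test, which pools spread over genes of like level, gave an adjusted p of 0.245 (log2 fold change −0.50, SE 0.20). Lss, which closes squalene epoxide into lanosterol, measured 10.8 FPKM in both knockout libraries and 12.9 and 13.7 FPKM in WT (log2 fold change −0.27, SE 0.15). In GENCODE, exons of Hmgcs1 and Idi1 overlap short transcripts on the opposite strand over 12.1% and 9.22% of their bases.

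The other sterol genes overlapped between the groups. Fdps, the farnesyl diphosphate synthase and the most abundant of the 8, measured 40.4 FPKM in both knockout libraries and 46.6 and 39.9 FPKM in WT, so that WT replicate 1 alone stood apart. Its log2 fold change of −0.09 turned to 0.019 without that library. In GENCODE, 26.7% of the exon bases of Fdps lie in a second gene model on the same strand, Gm43738. Sqle, the squalene epoxidase, measured 3.87 and 6.46 FPKM in knockout and 4.36 and 5.00 FPKM in WT and was the 1 sterol gene with a positive log2 fold change (0.09, SE 0.24). Fdft1 (squalene synthase), Cyp51 (lanosterol demethylase) and Dhcr7 (the last reductase of the pathway) had log2 fold changes of −0.27, −0.11 and −0.03, with SEs of 0.22, 0.17 and 0.18. Fdft1 shares 18.3% of its exon bases with Ctsb on the opposite strand, and Ctsb was higher in knockout, at 189 and 225.8 FPKM against 149.9 and 154.3 FPKM in WT (adjusted p = 0.0435).

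Among 21 further genes of sterol synthesis, uptake and sensing, 18 were tested and none passed, against 3.33% called of all tested genes. The median log2 fold change was −0.06, and in 6 of the 18 the libraries did not overlap, 1 higher and 5 lower in knockout, a share of 33.3% that is below the 46% of all tested genes.

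The 3 enzymatic branches can be set side by side. Oxidation had 8 positive and 3 negative log2 fold changes (median 0.16), fatty acid synthesis 0 positive and 6 negative among the 6 tested (median −0.18), and sterol synthesis 1 positive and 7 negative (median −0.19). No gene of the 3 branches was called among 25 tested, where 3.33% of all tested genes were called. Over all 9476 tested genes, 4783 log2 fold changes were positive and 4691 negative. Over the alternative settings and libraries left out, the median of oxidation ranged from 0.08 to 0.19, that of synthesis from −0.32 to −0.10 and that of sterol genes from −0.28 to −0.11. The wider lists written for the same branches had medians of 0.02, −0.03 and −0.06. The difference between branches was not tested.

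**Figure D3:**
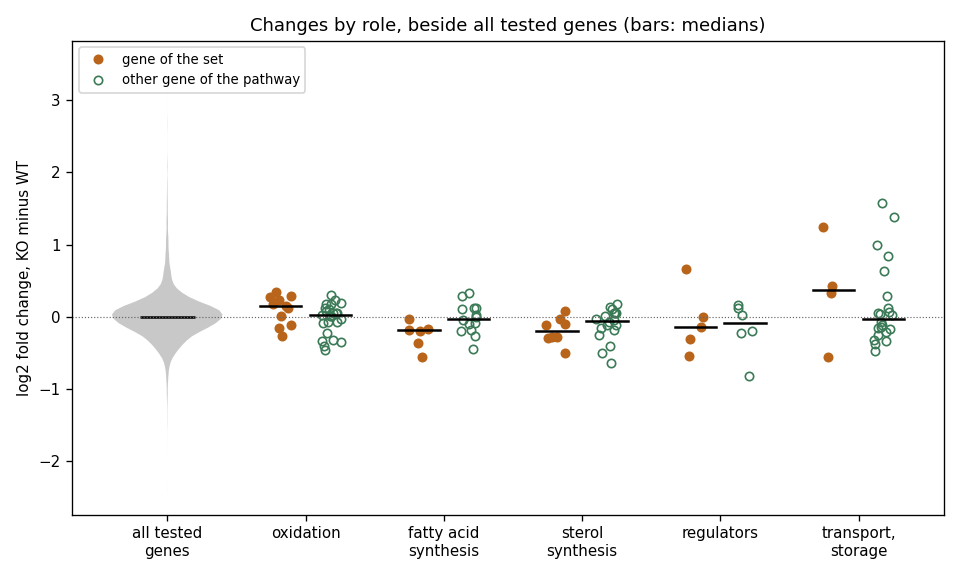
Log2 fold changes, knockout minus WT, of all 9476 tested genes (grey violin) and of the tested genes by role (filled, genes of the set; open, other genes of the same pathway; black bars, medians). The medians of the 3 enzymatic branches lie between −0.19 and 0.16, and the called rises, Fabp5, Hilpda, Apoe and Lpl, are all genes of transport and storage.

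The regulators did not pass the test, and 1 knockout library decided the value of the sterol regulator. Srebf2, which encodes the SREBP that drives sterol genes, measured 16.0 and 8.504 FPKM in knockout and 17.4 and 17.5 FPKM in WT. Knockout replicate 1 was close to WT, and knockout replicate 2 was the low library. The log2 fold change was −0.54 (SE 0.23, adjusted p = 0.294), but −0.96 (adjusted p = 0.00483) without knockout replicate 1 and −0.12 (adjusted p = 0.842) without knockout replicate 2. Srebf1, the SREBP gene tied to fatty acid synthesis, measured 16.8 and 12.1 FPKM in knockout and 19.2 and 13.0 FPKM in WT, with overlap. Insig1, the sterol-responsive anchor of SREBPs, varied most within WT, at 7.30 and 3.85 FPKM, and measured 3.13 and 5.34 FPKM in knockout.

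The LXR genes stood at different levels, and neither passed. Nr1h2, which encodes LXR-beta, the form found in most cells, measured 39.9 and 33.5 FPKM in knockout and 36.5 and 36.7 FPKM in WT. Its log2 fold change was −0.0013, with a 95% interval from −0.28 to 0.27, and was positive without knockout replicate 2 (0.12) or WT replicate 3 (0.0019). Nr1h3, which encodes LXR-alpha, the form typical of macrophages and liver, measured 0.859 and 2.49 FPKM in knockout and 0.426 and 0.825 FPKM in WT. Knockout replicate 2 was far above the other 3 libraries, and it also had the highest summed macrophage markers and the highest summed conventional NK markers. Any relation to the Nr1h3 value was not tested. The difference did not pass (log2 fold change 0.66, SE 0.31, adjusted p = 0.34) and was 0.20 without knockout replicate 2 and 1.11 without knockout replicate 1.

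Of 13 other regulators in the table, 6 were tested and 1 fell, where 0.939% of all tested genes fell. Mlxip, which encodes MondoA, a glucose-sensing transcription factor that pairs with MLX, measured 15.3 and 11.8 FPKM in knockout and 27.3 and 21.8 FPKM in WT. Both knockout libraries were below both WT libraries, with means 1.81-fold lower in knockout (log2 fold change −0.81, SE 0.17, adjusted p = 0.0256). The call was lost without knockout replicate 2 (−0.64, adjusted p = 0.0665), without WT replicate 1 (−0.66, adjusted p = 0.172) and without the mean-variance trend (adjusted p = 0.133). Its partner Mlx had a log2 fold change of −0.22 (SE 0.14) that did not pass. The receptors Ppara, Ppard and Pparg and the coactivators Ppargc1a and Ppargc1b were all below 1 FPKM in every library.

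Lipid transport and storage held the called gene of the set. Fabp5 (Entrez 16592, GRCm38 chromosome 3, 10012585 to 10016610) encodes a cytosolic carrier of long-chain fatty acids found in epidermis, macrophages and activated lymphocytes. It measured 6.58 and 6.83 FPKM in knockout and 2.37 and 2.15 FPKM in WT. Replicates were close and the groups far apart, at 6.70 ± 0.178 FPKM in knockout and 2.26 ± 0.155 FPKM in WT (SD, n = 2 each), a 2.96-fold rise by means. The log2 fold change was 1.24 (SE 0.20, adjusted p = 0.00693), and it ranged from 1.19 to 1.29 with each library left out in turn, passing each time. It passed in 10 of the 11 alternatives in which it was tested and not when all genes above 0 were tested (adjusted p = 0.302). With a filter at 5 FPKM it was not tested, since its mean was 4.48 FPKM. A processed pseudogene of Fabp5 is annotated in GENCODE and could share reads with it.

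The remaining genes of the group did not pass. Plin2, which coats lipid droplets, measured 20.3 and 22.5 FPKM in knockout and 14.7 and 16.7 FPKM in WT. Both knockout libraries were higher (log2 fold change 0.43, SE 0.14, adjusted p = 0.165). Abcg1, the LXR-driven exporter of cholesterol, lay the other way, at 17.4 and 15.7 FPKM in knockout and 26.6 and 23.0 FPKM in WT. It was 1.502-fold lower by means and missed the threshold (log2 fold change −0.56, SE 0.14, adjusted p = 0.0643), and it passed without knockout replicate 1 (−0.62, adjusted p = 0.0351). Cd36, a scavenger receptor and fatty acid transporter, was the gene just above the filter, at 0.85 and 1.79 FPKM in knockout and 0.608 and 1.03 FPKM in WT. Abca1, the other LXR-driven exporter, was just below it, at 0.633 and 1.18 FPKM in knockout and 1.16 and 0.615 FPKM in WT, and was not tested.

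Beyond the set, 33 genes of lipid transport, storage and cholesterol handling were found in the table, of which 22 were tested, 3 rose and 0 fell. The share called was 13.6%, against 3.33% of all tested genes, on a list written with earlier results known. Apoe, the lipoprotein component that macrophages and hepatocytes secrete, measured 199.3 and 233.9 FPKM in knockout and 75.3 and 90.3 FPKM in WT. It was 2.62-fold higher by means (log2 fold change 1.38, SE 0.12, adjusted p = 2.1e-04). Hilpda, a hypoxia-inducible droplet protein that inhibits lipolysis, measured 56.8 and 64.5 FPKM in knockout and 27.3 and 32.6 FPKM in WT, 2.03-fold higher by means (log2 fold change 0.998, SE 0.13, adjusted p = 0.00229). Its call was lost without the mean-variance trend (adjusted p = 0.0599). Lpl, the lipoprotein lipase, measured 1.596 and 3.65 FPKM in knockout and 0.151 and 0.177 FPKM in WT, where it was near the floor. Its log2 fold change was 1.58 (SE 0.29, adjusted p = 0.0139), and 1.16 (adjusted p = 0.0915) without knockout replicate 2. The call was also lost without the mean-variance trend (adjusted p = 0.0782). The median over the 22 tested genes was −0.02, so the other 19 lay on both sides of 0, among them Fabp1, the liver form of the carrier, at 36.6 and 39.6 FPKM in knockout and 49.3 and 56.7 FPKM in WT (adjusted p = 0.0642), which was named after its values were seen.

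**Figure D4:**
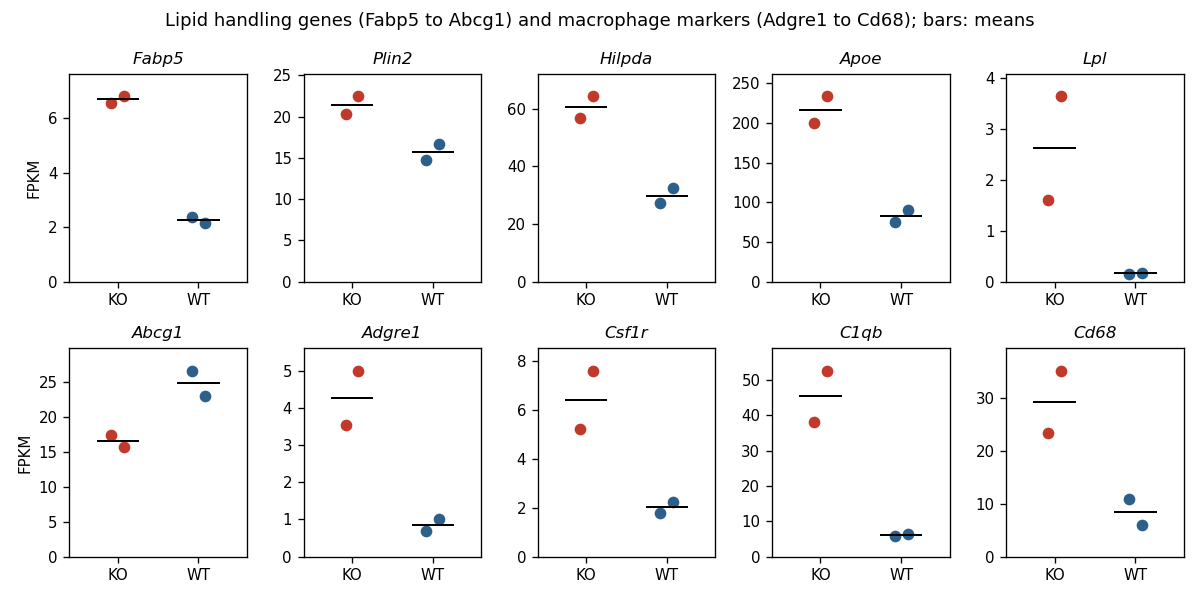
FPKM in each library (points; bars, means) for 6 lipid handling genes, from Fabp5 to Abcg1, and for 4 macrophage markers, from Adgre1 to Cd68, with knockout left of WT in each panel. Fabp5, Plin2, Hilpda, Apoe and Lpl and all 4 markers shown are higher in both knockout libraries than in either WT library, and Abcg1 is lower. These 4 markers are among 8 called as higher, of 11 tested and 14 listed. Of the markers not shown, Clec4f, Vsig4 and Cd5l overlapped between the groups, and Marco was lower in both knockout libraries.

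Most tested macrophage markers were also higher in knockout. Of 14 markers listed, 11 were tested, 8 rose and 0 fell, with a median log2 fold change of 1.65. Adgre1, which encodes F4/80, measured 3.54 and 5.01 FPKM in knockout and 0.698 and 1.011 FPKM in WT, a 5.00-fold rise by means against 2.96-fold for Fabp5. Csf1r, the receptor of the macrophage growth factor, measured 5.20 and 7.60 FPKM in knockout and 1.80 and 2.24 FPKM in WT. The Kupffer cell marker Clec4f measured 3.72 and 12.4 FPKM in knockout and 2.04 and 4.37 FPKM in WT and did not pass, with overlap. The other markers of resident liver macrophages were mixed. Vsig4 (log2 fold change 0.85) and Cd5l (−0.04) overlapped between the groups and did not pass. Below the filter, Timd4 measured 0.234 and 1.93 FPKM in knockout and was listed at 0 and at 0.101 FPKM in WT, and Marco measured 0.328 and 0.158 FPKM in knockout and 0.555 and 0.36 FPKM in WT, lower in both knockout libraries. Knockout replicate 2 was above knockout replicate 1 in Adgre1, Csf1r, Lpl, Apoe and Nr1h3, and also in Plin2, Hilpda and Cd36. The same held for the summed conventional NK markers, at 605.6 against 289.4 FPKM. Fabp5 was alike in both, and Abcg1 was lower in knockout replicate 2. Of conventional NK markers, 9 of 11 tested were called as higher in knockout, with a median log2 fold change of 1.88. The NK markers not called were Itga2 (log2 fold change 0.09) and Itgam (0.26), in which the groups overlapped. The largest rise among them was in Cma1, at 17.87 and 83.65 FPKM in knockout and 2.61 and 2.33 FPKM in WT. Of cell cycle genes, 9 of 18 tested were called as higher (median 0.79). Over all tested genes 2.4% were called as higher. In bulk libraries, more cells of a type and more RNA per cell cannot be told apart, and the part of macrophage, NK or dividing cells in the lipid gene values was not tested.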

How the data were processed

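RNA-seq of liver ILC1s gave 4 libraries, 2 of Cd200r knockout and 2 of WT mice, grouped by the genotype in the labels. Per the labels' protocols, RNA was extracted with TRIzol, amplified by a kit for full-length cDNA of single cells and made into libraries with a transposase-based kit. The authors deposited FPKM per gene, a unit scaled to gene length and library size. The submitters' processing notes name fastp, HISAT2, HTSeq, DESeq2, R 3.2.0 and the build mm10, with no role or order. No counts were used here. Depth was inferred from the steps between low values of 606 single-exon genes, of which 70.9% to 75.8% per library fell within 0.05 of a whole read, so it is approximate.

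The FPKM were taken as deposited, log2(FPKM + 1) was computed, and limma 3.58.1 in R 4.3.3 was fitted with a mean-variance trend and 2 residual degrees of freedom to genes averaging 1 FPKM or more. The pseudocount understates changes of low genes. Adjustment was by Benjamini-Hochberg over all 9476 genes, and the fit was tested on simulated data. Alternatives were pseudocounts of 0.1 and 5, no filter and a filter at 5 FPKM, no trend, 3 rescalings and each library left out. Values in every library were to be given for genes past the test, for the highest and the 2 most changed genes of each role, and for the genes next to the filter, and for other pathway genes past the test or most changed in their list. Further genes were added for their role. The members and lists were chosen with earlier results of these data known. For 1 of the other pathway lists, the most changed gene is not reported here.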

Additional observations from a re-analysis of the deposited data

How the results depend on the processing

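With 2 libraries a group, the number of calls depended on how the spread was estimated. Without a filter on low values limma called 0 genes (0 higher and 0 lower in knockout, 1898 at an unadjusted p under 0.05), and so 0 of the set. With a filter at 5 FPKM 151 were higher and 0 of the set were higher, because Fabp5 was no longer tested. Without the mean-variance trend 70 were called, 57 higher and 13 lower. With each library left out in turn, 256 to 574 genes were called, 170 to 351 higher and 56 to 223 lower, and 0 to 2 genes of the set were lower, the 2 being Srebf2 and Abcg1 without knockout replicate 1. A library left alone in its group was assumed to vary like the other group.

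The median of the 4 tested transport and storage genes moved most, to 0.52 and 0.23 with pseudocounts of 0.1 and 5, 0.33 without a filter, −0.065 with a filter at 5 FPKM, 0.43 as TPM, 0.35 after quantile normalization, and 0.20 to 0.56 with a library left out. The median of the regulators ranged from −0.40 to 0.08. The small differences of 3 genes changed sign with a library left out, where Elovl5 ranged from −0.19 to 0.13, Nr1h2 from −0.12 to 0.12 and Fdps from −0.20 to 0.019. Of the values for single genes, 236 kept their direction and side of the threshold, 11 lost it, 2 gained it and 5 changed sign. The cause was not tested. No paired analysis was possible because the groups share only 1 replicate number.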
